A study of Homo sapiens with 74 samples.

Results

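The comparison described here is that of K562 cells lacking ENL with unedited K562 cells, measured as messenger RNA. K562 is an established human erythroleukaemia cell line. The members are the 3 ENL knockout libraries (genotype ENL-/-) and the 2 distinct control libraries (genotype wild type), 5 of the 74 samples of the series. The 3 DOT1L knockout libraries of the same line (genotype DOT1L-/-) serve as a second reference. All of them carry the K562 background and no treatment is named. The table lists 28131 genes, of which 14301 had enough counts to be tested. A further control column held the same count as the second control in every gene, so the pair was counted as 1 library. The labels do not say whether the ENL knockout is 1 clone or several, nor whether the replicates were grown separately, so the p-values measure only the spread between these libraries, which may be technical. Labels of the control and DOT1L knockout libraries name a sequencing lane and those of the ENL knockout libraries name none. A batch of the ENL knockout libraries cannot be told apart from the knockout.

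ENL, the product of MLLT1, is a nuclear protein whose YEATS domain binds acylated lysines on histone H3. It belongs to the complex of DOT1L, the enzyme that methylates lysine 79 of histone H3 on transcribed genes, and to the super elongation complex, which releases paused RNA polymerase II. In acute leukaemias MLLT1 is a fusion partner of MLL, and ENL is known as a reader that keeps genes such as MYC and HOXA cluster genes active. K562 cells have an erythroid and a latent megakaryocytic programme, which makes the genes of these lineages a natural readout.

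The 5 libraries held 15404944 to 21677910 counted fragments, and the ENL knockout library 3 was the smallest. Genes with at least 1 fragment numbered 16975 and 16977 in the controls and 15970 to 16481 in the ENL knockout. The common biological coefficient of variation over the K562 groups was 6.34%. Defining genes of the line (HBG1, HBG2, HBE1, HBZ, GATA1, TAL1 and KLF1) were expressed in every library. Levels are given as CPM, a gene's fragments relative to the TMM-scaled library total, and TAL1 was the lowest of these at 115.5 and 118.8 CPM in the controls and 128.0 to 134.4 CPM in the ENL knockout. Since these are bulk libraries, fewer cells of a type and less RNA per cell cannot be told apart.

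The targeted gene was lower in the libraries labelled as its knockout, but its transcript was far from lost. MLLT1 (chr19:6210381-6279948, GRCh38) stood at 213.6 and 218.6 CPM in the controls and at 153.0, 156.6 and 153.7 CPM in the ENL knockout. The 3 knockout libraries lay close together and well below both controls. The MLLT1 transcript fell by 0.48 on the log2 scale (SE 0.051, edgeR quasi-likelihood test, Benjamini-Hochberg adjusted p = 5.3e-06), while the DOT1L knockout held it at 220.5 ± 5.9 CPM (SD, n = 3). The labels do not give the edited part of MLLT1, and the count covers the whole gene, so this level does not measure the loss of ENL protein. DOT1L itself, at 262.8 ± 9.8 CPM (SD, n = 2) in the controls and 251.1 ± 11.95 CPM (n = 3) in the ENL knockout, did not pass the test (log2 fold change -0.07, edgeR adjusted p = 0.39). Of the 6 tested DOT1L complex members and YEATS readers, YEATS2 fell (-0.33) and YEATS4 rose (0.35) beside MLLT1, and MLLT10 and MLLT6 did not pass.

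Across all tested genes, 5863 passed an adjusted p of 0.05, which is 41% of those tested. Of all tested genes, 18.8% were higher and 22.2% lower in the ENL knockout. Most of these changes were small: 3279 of the 5863 (55.9%) were under 1.5-fold. Changes of at least 2-fold were more often decreases, with 413 genes (2.89% of those tested) higher and 1160 (8.11%) lower. A test against a 2-fold change itself (edgeR glmTreat) called 827 genes. The excess of decreases was present at every level of control expression. Among the 3136 genes at 1 to 10 CPM in the controls, 595 fell and 145 rose by at least 2-fold. Among the 2559 genes at 100 CPM or more, 27 fell and 3 rose by that much. The genes that went from at least 5 CPM in the controls to under 1 CPM in the ENL knockout numbered 61, and those that went the opposite way numbered 10.

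**Figure D1:**
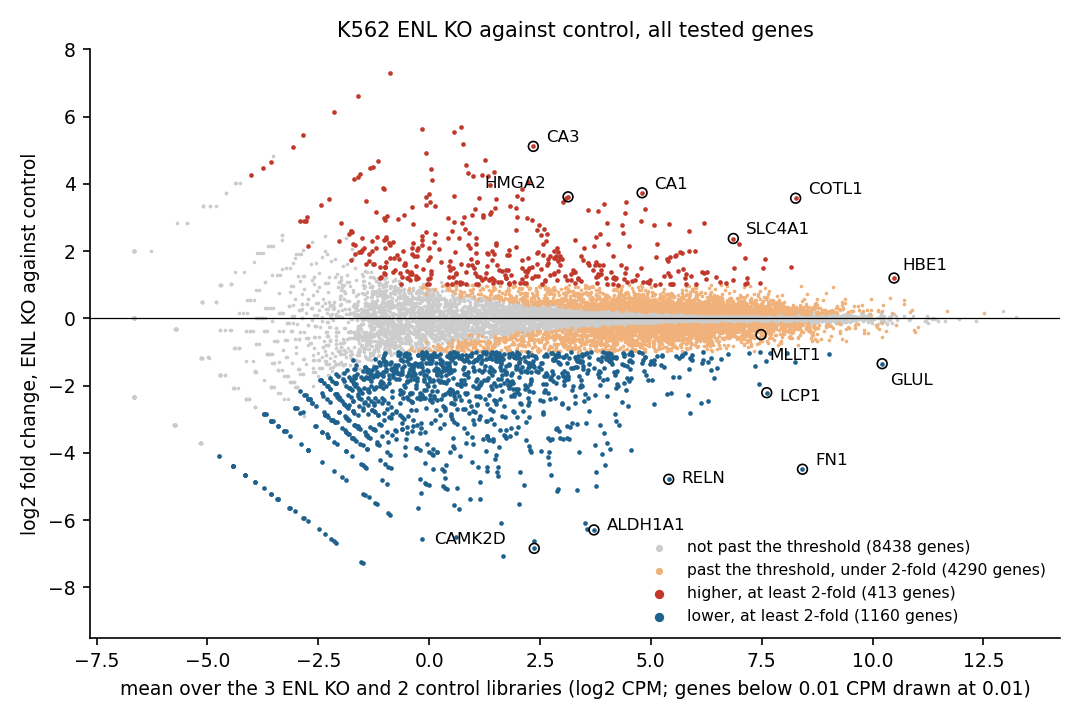
Each point is 1 of 14301 tested genes: mean level over the 5 libraries (log2 CPM) on the horizontal axis and log2 fold change of the ENL knockout against control on the vertical axis, coloured by the call. The 1160 genes lower by at least 2-fold outnumber the 413 higher ones, and MLLT1 lies near the centre at -0.48.

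The 12 largest increases by ratio included AHSP and CA1, 2 genes of red cells. AHSP, the chaperone of free alpha-globin, was at 3.26 and 4.30 CPM in the controls and at 28.2, 36.0 and 35.8 CPM in the ENL knockout (log2 fold change 3.14, SE 0.17, edgeR adjusted p = 6.9e-09). CA1, the cytosolic carbonic anhydrase of red cells, moved from 3.33 ± 0.04 CPM (SD, n = 2) to 44.3 ± 1.9 CPM (n = 3). Non-overlapping groups were a condition for naming these genes and are no finding. HMGA2, an architectural chromatin protein of fetal tissues, read 1.40 and 0.85 CPM in the controls and 13.1, 13.4 and 15.1 CPM in the ENL knockout, with a log2 fold change of 3.61. ACE, the angiotensin-converting enzyme, rose by 3.44 (from 3.14 to 34.3 CPM) and ELOVL7, a fatty acid elongase, by 3.24 (from 4.84 to 45.8 CPM). NNMT, the nicotinamide N-methyltransferase, rose by 3.22, and PASD1, a cancer-testis antigen, by 3.19. GRIN2C, an NMDA receptor subunit, rose by 3.56, and LINC00839, a long non-coding RNA, by 3.46. EPB41L4A, a relative of the red cell protein 4.1, rose by 3.40, and CA3, a second carbonic anhydrase, by 5.11 from only 4 and 6 control fragments. Many of these genes also rose in the DOT1L knockout against control: CA3 by 3.73, EPB41L4A by 3.02, ACE by 2.90, NNMT by 2.71, PASD1 by 2.51, CA1 by 2.19 and AHSP by 1.56. HMGA2 and GRIN2C rose less there (1.01 and 0.86), ELOVL7 did not pass (0.26) and LINC00839 fell (-0.76).

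By absolute amount, the increases were led by HBE1, the embryonic beta-like globin, described with the globins. COTL1, which binds filamentous actin, stood at 39.9 and 41.8 CPM in the controls and at 491.3, 492.4 and 471.7 CPM in the ENL knockout. Its log2 fold change was 3.57 (SE 0.080) with an edgeR adjusted p of 5.2e-12, whereas the DOT1L knockout held 30.3 ± 3.0 CPM (SD, n = 3). MCAM, the adhesion molecule CD146, rose from 134.6 ± 0.1 to 385.1 ± 22.7 CPM. STOM, stomatin of the red cell membrane, rose from 77.6 ± 3.4 to 263.6 ± 7.5 CPM, and DMTN, the actin-bundling dematin, from 87.6 ± 5.9 to 247.0 ± 8.7 CPM (SD, n = 2 and 3). DLK1, a Notch-related membrane protein, rose by 2.21 on the log2 scale, and MAGEC1, a cancer-testis antigen, by 1.81. In COTL1, MCAM, STOM and MAGEC1 the ENL knockout also lay above the DOT1L knockout in the direct contrast, by 4.01, 1.73, 2.41 and 2.99 on the log2 scale. Against control, these genes fell in the DOT1L knockout (-0.44, -0.21, -0.64 and -1.18). HBE1, DMTN, DLK1 and SLC4A1, in contrast, rose there as well, by 0.81, 0.94, 1.90 and 2.64.

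The largest decreases by ratio took genes from clear expression to nearly none. NAA11, a catalytic subunit of N-terminal acetyltransferases, was at 26.7 and 29.6 CPM in the controls and at 0.53, 0.24 and 0.46 CPM in the ENL knockout (log2 fold change -6.09, SE 0.17, edgeR adjusted p = 2.6e-11). ALDH1A1, which oxidises retinaldehyde, had 725 and 651 fragments in the controls and 11, 7 and 5 in the ENL knockout. CECR2, a bromodomain protein of chromatin remodelling complexes, went from 24.1 ± 0.9 to 0.70 ± 0.16 CPM (SD, n = 2 and 3). The 12 also held ROBO2, a receptor for Slit guidance proteins (-5.07), TNFRSF8, the lymphoid receptor CD30 (-5.00), GABBR2, a GABA-B receptor subunit (-4.66), EGFLAM, a matrix protein (-5.14), and RELN, the secreted glycoprotein reelin (-4.79). RELN was at 96.9 and 104.0 CPM in the controls and at 3.86, 4.67 and 2.02 CPM in the ENL knockout, whereas the DOT1L knockout held 210.0 ± 3.6 CPM. MAGED1, a MAGE family gene, fell by 4.56, and FAM84A fell by 6.27. CAMK2D, a calcium- and calmodulin-dependent kinase, fell by 6.84 and DNAJC12, a co-chaperone, fell by 6.62, with 5, 1 and 0 fragments of CAMK2D and 6, 1 and 0 of DNAJC12 left in the knockout libraries. With so few fragments the size of these ratios is uncertain: without ENL knockout 1 the values for CAMK2D, DNAJC12 and FAM84A were -8.57, -8.56 and -7.39. In the DOT1L knockout against control, CAMK2D, DNAJC12, EGFLAM, TNFRSF8 and CECR2 also fell, though less (-1.55, -1.27, -1.25, -1.06 and -0.84). RELN and MAGED1 rose there (1.06 and 0.33), and ALDH1A1, FAM84A, NAA11, ROBO2 and GABBR2 did not pass.

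By absolute amount, GLUL and FN1 lost most among genes lower by at least 2-fold. FN1, the matrix protein fibronectin, fell from 777.5 and 826.6 CPM to 38.5, 36.6 and 31.9 CPM (log2 fold change -4.49, SE 0.075, edgeR adjusted p = 2.4e-13). GLUL, glutamine synthetase, fell from 1840 and 1902 CPM to 765.9, 727.2 and 709.5 CPM, and HSPG2, the basement membrane proteoglycan perlecan, from 385.3 ± 12.8 to 187.8 ± 7.5 CPM (SD, n = 2 and 3). AHNAK, a very large scaffold protein, went from 311.7 ± 4.8 to 79.9 ± 8.8 CPM. LCP1, the leukocyte actin-bundling plastin, fell by 2.21 on the log2 scale and the uncharacterised LOC102724908 by 1.31. FN1, LCP1 and AHNAK were also lower in the ENL knockout than in the DOT1L knockout, with log2 differences of -4.12, -2.10 and -2.27. In the DOT1L knockout against control, GLUL, HSPG2, INSIG1 and DDIT4 fell as well (-0.74, -0.80, -1.31 and -1.16), and FN1 fell less (-0.36). LCP1 did not pass there (-0.11), and AHNAK and LOC102724908 rose (0.31 and 0.43). INSIG1 and DDIT4 belong to pathways described with their groups.

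**Figure D2:**
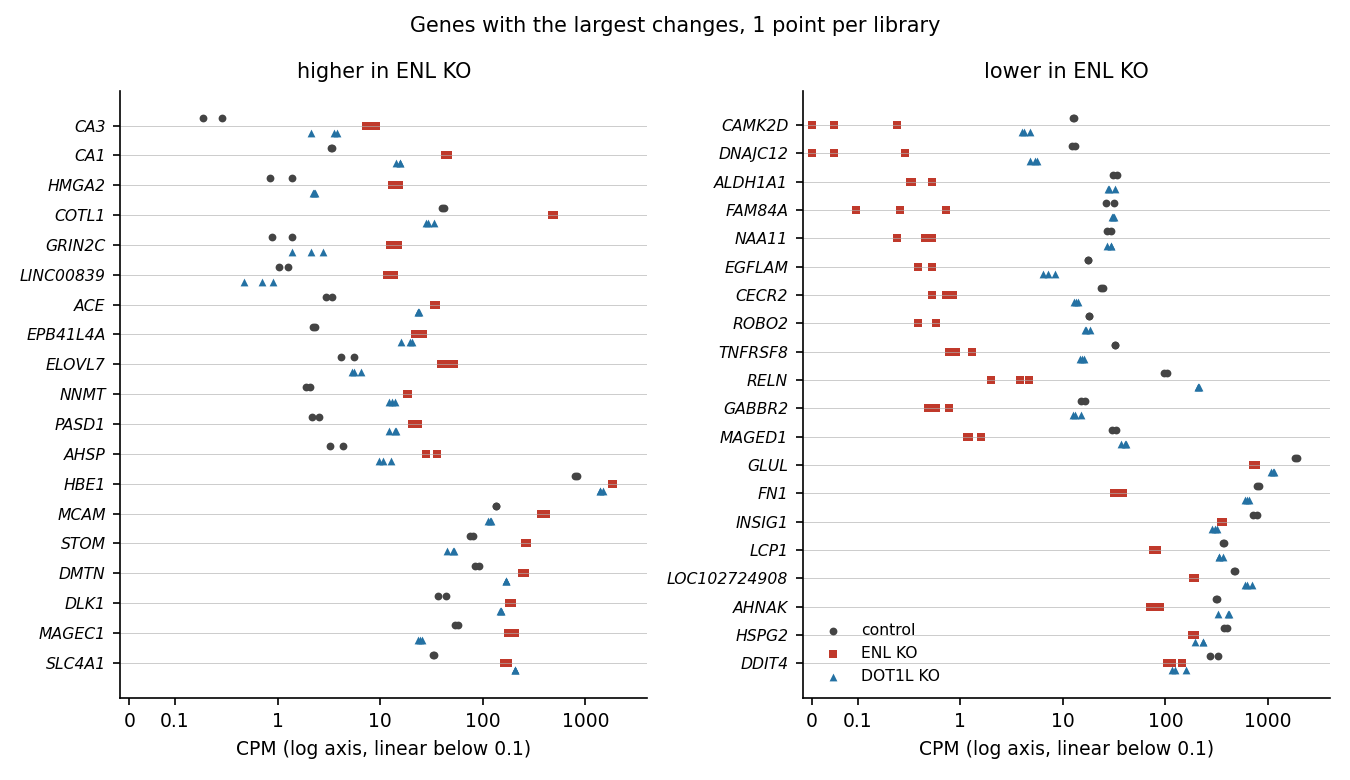
Each point is 1 library: its CPM on a log axis that is linear below 0.1, for the genes with the largest ratios and the largest CPM differences (left, higher in ENL knockout; right, lower). The rows were chosen for large differences between the ENL knockout squares and the control circles, and in rows such as LCP1, ROBO2 and ALDH1A1 the DOT1L knockout triangles lie at the level of the controls.

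The direct contrast of the ENL and DOT1L knockouts, whose means do not use the controls although its estimate of the spread does, passed an adjusted p of 0.05 for 8606 genes (60.2%). Of these, 4053 were higher and 4553 lower in the ENL knockout. Some large changes of the ENL knockout were as large in the DOT1L knockout or larger. SLC4A1, the band 3 anion exchanger of red cells, was at 171.5 ± 9.6 CPM in the ENL knockout, 206.2 ± 2.0 CPM in the DOT1L knockout and 33.1 ± 0.2 CPM in the controls (SD, n = 3, 3 and 2). MEIS1, a homeobox cofactor of leukaemia, was at 11.1 ± 0.8, 12.8 ± 1.6 and 3.28 ± 0.09 CPM in the same order, and the 2 knockouts differed by -0.21 (SE 0.11, edgeR adjusted p = 0.12). Other genes went to opposite sides of the control. LIN28A, an RNA-binding protein of stem cells, was at 5.65 ± 0.34 CPM in the ENL knockout and 0.16 ± 0.07 CPM in the DOT1L knockout, around 1.29 ± 0.31 CPM in the controls. LYZ, lysozyme of myeloid cells, was at 19.8 ± 0.6, 310.3 ± 17.1 and 34.0 ± 1.9 CPM.

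The gene lists described from here on were drawn up with results of these data known, so their counts describe and do not test a theme. Each is set beside all tested genes, of which 41% passed (18.8% higher, 22.2% lower) with a median log2 fold change of 0.0028.

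Genes of haem and red cell production were more often higher than lower. Of 12 tested haem synthesis genes, 8 rose and 0 fell, with a median log2 fold change of 0.38. In 4 of the other settings 1 of the 12 fell. ALAS2, the erythroid enzyme that starts haem synthesis, was at 52.5 and 58.8 CPM in the controls and at 160.3, 156.3 and 157.2 CPM in the ENL knockout (log2 fold change 1.50, SE 0.062, edgeR adjusted p = 5.8e-10). PPOX, the enzyme before the last step, rose by 0.81, and UROD and FECH, a middle and the final enzyme, by 0.42 and 0.37. ALAS1, the enzyme of other tissues, did not pass (-0.10). ALAS2, PPOX and HBD stayed below their DOT1L knockout levels, which were 355.2 ± 7.4, 79.5 ± 4.8 and 17.4 ± 1.0 CPM (SD, n = 3).

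Of the 9 tested globins, 4 rose and 0 fell. HBE1 (chr11:5268350-5270143, GRCh38) was at 785.6 and 825.8 CPM in the controls and at 1804, 1865 and 1875 CPM in the ENL knockout (log2 fold change 1.20, SE 0.053, edgeR adjusted p = 1.2e-09). HBZ, the embryonic alpha-like globin, rose by 0.61, and HBD, the minor adult delta-globin, by 1.01 from 61 and 92 control fragments. HBZ was at 976.1 and 1080 CPM in the controls and at 1480 to 1692 CPM in the ENL knockout. HBG2, a fetal gamma-globin, rose by 0.23, while HBG1, HBA1, HBA2, HBQ1 and HBB did not pass. Fragments of HBG1 and HBG2, and of HBA1 and HBA2, can be shared between near-identical copies, so the values of these 4 genes are uncertain.

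The promoters of ALAS2 and HBD are shown because both genes rose and both hold the letters AGATAA, the core of the site that GATA factors bind. ALDH1A1, which was nearly lost, is set beside them because its promoter holds the same letters. The windows run from 250 bases before to 50 bases after the RefSeq start on GRCh38.p14, read 5′ to 3′ on the gene's strand, and capitals mark AGATAA or its reverse complement TTATCT. ALAS2 lies at chrX:55030928-55031227 on the minus strand, with the match 127 bases before the start. HBD lies at chr11:5234434-5234733 on the minus strand, with the match 78 bases before the start. ALDH1A1 lies at chr9:72953004-72953303 on the minus strand, with the match 34 bases before the start.
ALAS2: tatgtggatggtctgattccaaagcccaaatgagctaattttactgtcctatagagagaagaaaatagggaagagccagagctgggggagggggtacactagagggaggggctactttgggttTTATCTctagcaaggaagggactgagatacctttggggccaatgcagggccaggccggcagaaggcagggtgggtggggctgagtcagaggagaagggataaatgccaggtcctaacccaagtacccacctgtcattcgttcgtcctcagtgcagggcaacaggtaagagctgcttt
HBD: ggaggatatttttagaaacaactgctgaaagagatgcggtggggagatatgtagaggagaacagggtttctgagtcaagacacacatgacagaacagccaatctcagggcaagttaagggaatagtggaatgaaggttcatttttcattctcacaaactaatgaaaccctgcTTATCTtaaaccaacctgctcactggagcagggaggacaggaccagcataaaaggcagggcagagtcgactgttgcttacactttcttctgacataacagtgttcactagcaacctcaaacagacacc
ALDH1A1: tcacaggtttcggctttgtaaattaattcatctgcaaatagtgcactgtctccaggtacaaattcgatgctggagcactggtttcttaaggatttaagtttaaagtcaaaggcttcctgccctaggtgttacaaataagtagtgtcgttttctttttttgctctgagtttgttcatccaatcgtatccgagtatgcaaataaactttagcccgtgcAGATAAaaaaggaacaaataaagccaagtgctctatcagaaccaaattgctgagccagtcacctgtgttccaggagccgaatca
Either strand of AGATAA occurs in 10.5% of the 27305 promoters of the RefSeq table and in 5.53% of the 11081 that belong to tested genes. A match is a description of letters, not a bound site. Only 72.2% of the genes higher and 75.2% of those lower by at least 2-fold have a promoter in that table, so a comparison of promoter features between the groups is void and is not given.

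Among 24 tested genes of the red cell membrane, 16 rose and 3 fell (median 0.49). SLC4A1 was at 33.3 and 33.0 CPM in the controls and at 177.4, 176.7 and 160.3 CPM in the ENL knockout (log2 fold change 2.37, SE 0.066, edgeR adjusted p = 2.6e-11). XK, which carries the Kx antigen, rose by 1.05 and RHCE, of the Rh antigens, by 1.66. The pattern was not uniform within the membrane skeleton. ADD2, the beta subunit of adducin, fell from 234.9 and 218.2 CPM to 122.5, 115.1 and 105.4 CPM, and BCAM, the Lutheran antigen, fell by 1.98. EPB42, protein 4.2, the third member that fell (-0.50), lies on chromosome 15. Band 3's anchor ANK1 and beta-spectrin SPTB did not pass.

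Erythroid transcription factors moved in both directions: of 18 tested regulators, 8 rose and 5 fell (median 0.11). GFI1B, a repressor needed for red cells and platelets, rose from 108.5 and 106.6 CPM to 218.8, 226.4 and 216.4 CPM (log2 fold change 1.04, SE 0.054, edgeR adjusted p = 6.0e-09). GATA1, the master factor of erythropoiesis, rose by 0.50, its cofactor ZFPM1 by 0.81, KLF1 by 0.43 and EPOR, the erythropoietin receptor, by 0.58. Of the 5 that fell, GATA2, a factor of earlier progenitors, was at 542.2 and 483.2 CPM in the controls and 349.4, 326.3 and 289.9 CPM in the ENL knockout, MYB fell by 0.59, and STAT5A, a signal transducer below cytokine receptors, fell by 0.67. NFE2, a factor that activates globin genes, and TFRC, the transferrin receptor that brings iron into erythroid cells, each fell by 0.26.

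Markers of other blood cells were examined beside these lists. Of 10 tested megakaryocyte and platelet genes, 4 rose, all by at least 2-fold, and 1 fell. TUBB1, the platelet beta-tubulin, was at 15.9 and 15.8 CPM in the controls and at 104.3, 115.1 and 117.8 CPM in the ENL knockout (log2 fold change 2.83, SE 0.079, edgeR adjusted p = 2.6e-11). RAB27B, of platelet granule secretion, rose by 2.79, ITGB3, the beta3 integrin, by 2.42, and ITGA2B, its platelet partner, by 1.31. Their rise did not extend to the rest of the list: 12 of 23 members had at most 3 fragments in all 5 libraries, and GP1BA, GP1BB, VWF, SELP, TREML1 and FLI1 had none. The list's summed level was 381.3 to 389.4 CPM in the controls and 571.8 to 600.0 CPM in the ENL knockout. CD9, the member that fell, lost its call when the ENL knockout and control libraries were fitted alone.

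Myeloid markers were low and went down. Of 7 tested granulocyte and monocyte genes, 6 fell and 0 rose, with a median log2 fold change of -2.35. The summed level of all 16 genes of that list was 81.4 to 83.6 CPM in the controls and 29.6 to 36.0 CPM in the ENL knockout. LYZ and SPI1 made up most of it in the controls, at 34.0 and 24.5 CPM. CD33, a sialic acid-binding receptor of myeloid cells, was at 17.2 and 16.9 CPM in the controls and at 1.74, 1.22 and 1.37 CPM in the ENL knockout. SPI1, the myeloid factor PU.1, fell by 1.13 and ITGAM, the integrin CD11b, by 3.08. CSF3R, the receptor of G-CSF, had 23 fragments in each control and 0, 1 and 2 in the ENL knockout, so that it was at least 6.65-fold lower against a floor of 3 fragments per library. In the DOT1L knockout CD33, SPI1, ITGAM and CSF3R were at 40.6 ± 2.9, 47.5 ± 1.1, 7.58 ± 0.41 and 9.78 ± 0.41 CPM, all above the controls. Each of these 4 genes differed between the knockouts in the direct contrast, CD33 by -4.80 (edgeR adjusted p = 2.1e-12).

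Lymphocyte markers gave 2 increases and 1 decrease among 4 tested, led by PTPRC, the common leukocyte antigen CD45, which rose by 0.85. Without either control the number of increases was 1. Of 6 tested fibroblast markers 3 fell and 1 rose (0 without ENL knockout 1 or control 1), and the summed level of that list, 861.8 to 908.3 CPM in the controls and 116.9 to 129.0 CPM in the ENL knockout, is mostly FN1. COL1A2 did not pass (67.5 against 71.8 CPM). ACTA2, smooth muscle actin, had 15 and 23 control fragments and none in the ENL knockout, at least 5.51-fold lower. The part of other cell types in any of these changes was not tested.

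Genes of sterol synthesis mostly went down. Of 24 tested genes of cholesterol synthesis and uptake, 16 fell (median -0.36). TM7SF2 was the only one that rose, and no member rose without ENL knockout 1, ENL knockout 2 or control 2, with upper-quartile scaling, relative to the gene's own chromosome, or with ENL knockout and control libraries fitted alone. INSIG1, the sterol sensor that retains SREBP in the endoplasmic reticulum, was at 716.1 and 783.0 CPM in the controls and at 346.6, 366.1 and 363.4 CPM in the ENL knockout (log2 fold change -1.06, SE 0.061, edgeR adjusted p = 1.5e-08). INSIG1 was named for a large CPM difference with groups that do not overlap, so that separation is no finding. Enzymes along the pathway also fell: HMGCS1, an early condensing step (-0.87), FDFT1, squalene synthase (-0.61), CYP51A1, lanosterol demethylase (-0.68), and MSMO1, a sterol oxidase on chromosome 4 (-1.29). HMGCS1 lies in the first 60 megabases of chromosome 5, where the median was -0.34. INSIG1 lies beyond 80 megabases of chromosome 7, where the median was -0.18. A single median per chromosome (-0.04 and -0.08) does not capture these stretches, and their part in these decreases was not tested. SREBF2, which encodes the main transcription factor of the pathway, was at 343 CPM in the controls and 333 CPM in the ENL knockout and did not pass. The DOT1L knockout levels of INSIG1, HMGCS1 and CYP51A1 were 302.7 ± 18.5, 90.5 ± 5.1 and 167.7 ± 8.9 CPM (SD, n = 3), below those of the ENL knockout (edgeR adjusted p = 0.0019, 0.0011 and 0.0020).

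The promoters of INSIG1 and HMGCS1 are shown since both of these sterol genes fell and both carry TATAAA just before the start, marked in capitals. INSIG1 lies at chr7:155297628-155297927 on the plus strand, with the match 27 bases before the start, and HMGCS1 at chr5:43313363-43313662 on the minus strand, with the match 29 bases before it (RefSeq, GRCh38.p14).
INSIG1: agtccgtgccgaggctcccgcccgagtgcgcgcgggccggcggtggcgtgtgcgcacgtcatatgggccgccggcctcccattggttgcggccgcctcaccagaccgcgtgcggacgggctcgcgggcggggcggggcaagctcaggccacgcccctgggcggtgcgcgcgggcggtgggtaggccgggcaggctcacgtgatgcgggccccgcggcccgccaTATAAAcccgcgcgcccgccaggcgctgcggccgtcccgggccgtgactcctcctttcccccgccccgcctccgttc
HMGCS1: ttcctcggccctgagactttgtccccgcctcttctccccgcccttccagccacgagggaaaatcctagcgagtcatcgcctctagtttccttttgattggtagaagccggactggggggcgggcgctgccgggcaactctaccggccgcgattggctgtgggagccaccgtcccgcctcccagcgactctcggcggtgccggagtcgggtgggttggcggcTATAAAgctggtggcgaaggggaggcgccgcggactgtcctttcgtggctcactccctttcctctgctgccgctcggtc
TATAAA on the gene's strand within the last 50 bases before the start occurs in 2.92% of the promoters of the table. Among the promoters of tested genes the share is 1.89%.

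Genes of the amino acid response that ATF4 drives also went down. Of 25 tested, 15 fell and 0 rose (median -0.40). PHGDH, the first enzyme of serine synthesis, was at 75.1 and 72.3 CPM in the controls and at 38.8, 40.5 and 33.9 CPM in the ENL knockout (log2 fold change -0.96, SE 0.074, edgeR adjusted p = 2.7e-07). SLC7A11, the cystine transporter, which lies on chromosome 4, fell by 1.08, CTH, which makes cysteine, by 1.01, and STC2, a secreted glycoprotein, by 1.76. DDIT4, an inhibitor of mTORC1, varied more between replicates, with 322.5 and 271.4 CPM in the controls and 146.8, 115.6 and 103.6 CPM in the ENL knockout. ATF4 itself did not pass (377 against 352 CPM), and neither did its targets ASNS, TRIB3 and DDIT3. For PHGDH, SLC7A11 and CTH the DOT1L knockout stood at 78.8 ± 2.1, 40.3 ± 4.8 and 14.9 ± 0.8 CPM, and the direct contrast gave log2 differences of -1.06, -1.28 and -1.20 for the ENL knockout. DDIT4, in contrast, was also lower than control in the DOT1L knockout, at 132.9 ± 22.65 CPM (SD, n = 3). It did not pass in the direct contrast (-0.12, edgeR adjusted p = 0.44).

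Among the 34 tested cell cycle regulators, 13 rose and 3 fell (median 0.13), and the D-type cyclins, partners of CDK4 and CDK6, moved apart. CCND1 was at 19.9 and 21.3 CPM in the controls and at 83.8, 84.2 and 80.1 CPM in the ENL knockout (log2 fold change 2.01, SE 0.089, edgeR adjusted p = 1.3e-09). CCND3 rose by 0.77, from 345.4 ± 9.1 to 587.1 ± 19.3 CPM (SD, n = 2 and 3), and CCND2 fell by 1.00, from 252.7 ± 5.4 to 126.2 ± 6.1 CPM. Of the replication helicase, MCM5, MCM4, MCM6 and MCM2 rose by 0.37, 0.29, 0.25 and 0.21, and MCM3 and MCM7 did not pass. MKI67, the proliferation antigen, did not pass (-0.05). Without control 1 the number of cell cycle genes that rose was 8, not 13.

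The MLL-fusion and ENL targets of leukaemia gave 2 increases and 3 decreases among 10 tested genes. MYC was at 531.0 and 569.8 CPM in the controls and at 341.7, 358.7 and 341.0 CPM in the ENL knockout (log2 fold change -0.66, SE 0.051, edgeR adjusted p = 2.7e-07). MYB fell by 0.59 and SATB1 by 0.55. MEF2C rose from 65.5 and 68.0 CPM to 118.2, 135.1 and 139.1 CPM, and MEIS1 rose by 1.75. HOXA5, HOXA6, HOXA7, HOXA9, HOXA10, HOXA11, HOXA13 and FLT3 had no fragment in any of the 5 libraries, which allows a level of up to 0.195 CPM in the shallowest of them. The list of ribosome biogenesis genes and other MYC targets, in contrast, had a median of 0.0099, with 5 of 20 higher and 3 lower, MYC being 1 of the 3. NPM1 (1841 against 1812 CPM), NCL and POLR1A did not pass, and under other settings the number that rose ranged from 1 to 7.

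Elongation factors split in number, 6 higher and 7 lower of 25. ELL2, a subunit of the super elongation complex, rose by 0.58 and EAF2, a partner of ELL proteins, by 0.89. AFF1, a scaffold of the same complex, fell by 0.57, LEO1 and RTF1, of the PAF1 complex and its associates, by 0.68 and 0.27, and NELFA, of the negative elongation factor, by 0.34. CDK9, the kinase that releases paused polymerase, fell by 0.28. AFF1 and NELFA lie on chromosome 4 and LEO1, RTF1 and ELL3 on chromosome 15. With each gene's change taken relative to its own chromosome, the number that fell was 2, not 7. That setting takes 1 median per chromosome (-0.37 on chromosome 4), while the first 50 megabases of chromosome 4 had -0.17. It can overcorrect genes there. PAF1, CCNT1, ELL and AFF4 did not pass. The number of elongation factors that rose ranged from 2 to 8 over the other settings, and it was 2 without ENL knockout 2 and 3 without control 1.

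The actin cytoskeleton list, with 11 of 27 higher and 5 lower, held some of the strongest changes among abundant genes. Besides COTL1 and LCP1, GSN, the filament-severing gelsolin, rose from 18.5 and 17.6 CPM to 66.8, 68.4 and 65.9 CPM. ACTG1, gamma-actin, rose by 0.54 and VIM, the intermediate filament vimentin, fell by 0.54. ACTB, beta-actin, rose by 0.15 (edgeR adjusted p = 0.027). TMSB4X, MSN and EZR did not pass.

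Smaller families split between members. Of the carbonic anhydrases, which hydrate carbon dioxide, 2 of 10 tested rose (CA1 and CA3) and 6 fell. CA13, the neighbour of CA1 on chromosome 8, fell from 7.90 and 6.53 CPM to 1.50, 1.75 and 1.76 CPM. CA2, next to CA3 there, had 12 and 7 control fragments and 1, 1 and 3 in the ENL knockout, at least 2.74-fold lower. The cluster thus held changes in both directions within a short stretch. Of 13 tested aldehyde dehydrogenases 4 fell and 2 rose. Only 1 rose in 8 of the other settings, among them the fits without ENL knockout 1, ENL knockout 2, control 1 or control 2, and ALDH3A2, 1 of the 2, had controls at 0.047 CPM. ALDH1A2, the second retinaldehyde dehydrogenase of K562, was at 529.6 and 522.7 CPM in the controls and at 350.1, 343.5 and 333.5 CPM in the ENL knockout, against 149.7 ± 6.9 CPM in the DOT1L knockout. Among oncofetal genes of the LIN28 and HMGA group, HMGA2 and LIN28A rose while TRIM71, a stem cell ubiquitin ligase, fell by 4.76 from 58 and 71 control fragments to 1, 4 and 1. LIN28B (-0.24) and IGF2BP2 (-0.31) fell modestly, although the 5 decreases of this list were 2 without control 1 and 3 without control 2, and HMGA1, the abundant HMGA gene of the line, did not pass.

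Among 13 tested BCL2 family genes, 5 fell and 1 rose. Without control 1 the number that fell was 3, and the number that rose was 0 without control 2 and 2 without ENL knockout 3. PMAIP1 (NOXA) and BCL2L11 (BIM), both of which promote apoptosis, fell by 0.81 and 0.38, and BAX, a pore-forming effector, rose by 0.29. MCL1, which protects cells, fell by 0.15, and BCL2 and BCL2L1 did not pass. Glycolysis was near the background, with 6 of 21 higher, 5 lower (3 without control 1, control 2 or ENL knockout 2) and a median of 0.02, and GAPDH, ENO1 and PGK1 did not pass. Of 19 tested interferon response genes 3 rose and 5 fell, or 3 fell without control 2. USP18, which removes ISG15 from proteins, fell from 5.67 and 5.44 CPM to 0.53, 0.44 and 0.39 CPM, and OAS3, a sensor of double-stranded RNA, fell by 2.21. The median of this list was 0.26 as fitted and 0.065 with genes at or under 3 fragments per library set to their bound.

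**Figure D3:**
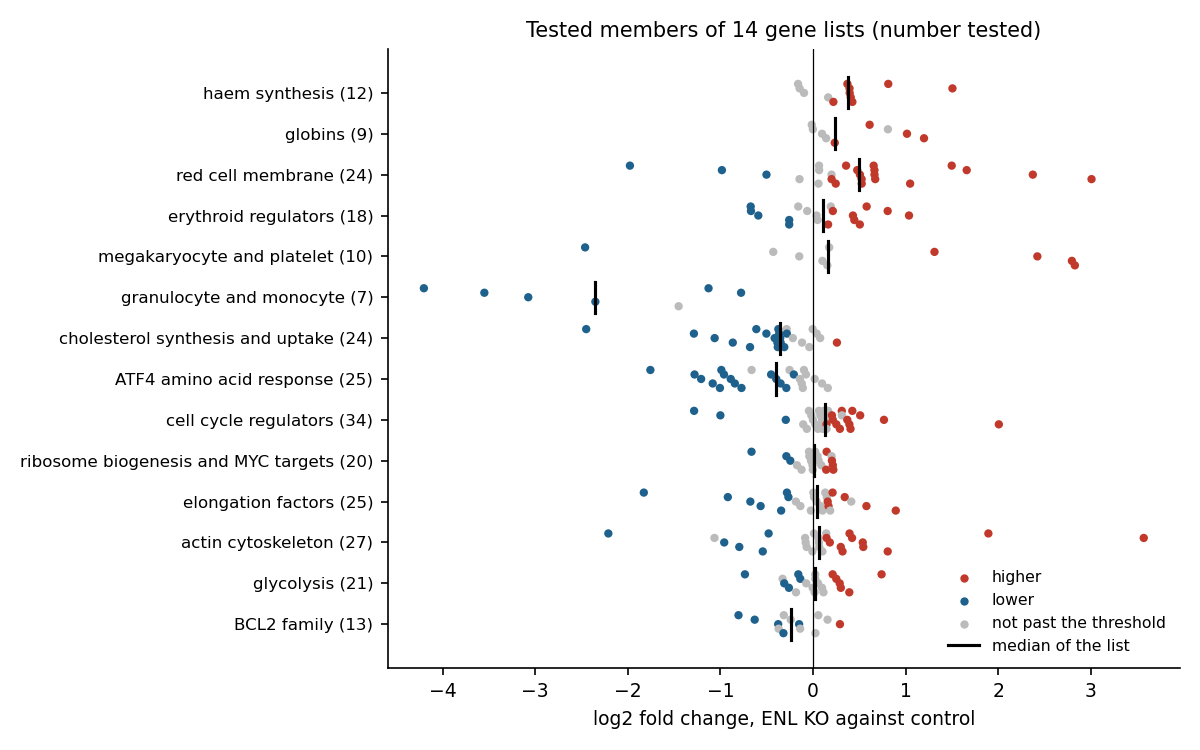
Each point is a tested member of 1 of 14 gene lists, placed by its log2 fold change in the ENL knockout against control and coloured by the call, and the black bar is the list's median. Haem synthesis (median 0.38) and red cell membrane genes (0.49) lie mostly right of 0, and the cholesterol (-0.36) and amino acid response lists (-0.40) mostly left of it.

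The decreases were not spread evenly over the genome. Chromosome 15 was lower along its whole length and chromosome 4 along most of it, while no such shift was seen there in the DOT1L knockout. On chromosome 15, 316 of 457 tested genes (69.2%) fell and 12 rose, against 20.7% that fell on the other chromosomes, and 88.4% of its genes had a log2 fold change below 0. The chromosome 15 median was -0.52. On chromosome 4, 262 of 526 tested genes (49.8%) fell and 36 rose, with a median of -0.37. The medians of the other 21 chromosomes lay between -0.08 (chromosome 7) and 0.10 (chromosome X). Together the 2 chromosomes hold 6.87% of the tested genes and 18.2% of the genes that fell. Away from them the calls were balanced, with 2643 genes higher and 2594 lower, but decreases of at least 2-fold still outnumbered increases, with 1002 against 393 genes.

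The shift was present in each ENL knockout library. Relative to the mean of the controls, the median log2 ratio over chromosome 15 was -0.52, -0.51 and -0.49 in ENL knockout libraries 1 to 3, and over chromosome 4 it was -0.40, -0.35 and -0.32. The controls themselves were within 0.01 of 0 on chromosome 15 and 0.02 on chromosome 4, and the DOT1L knockout libraries were at 0.01, 0.02 and -0.01 on chromosome 15 and at 0.05, 0.11 and 0.10 on chromosome 4. The groups did not overlap. An exact permutation test over libraries, two-sided, gave p = 0.2 against control (10 arrangements) and p = 0.1 against the DOT1L knockout (20 arrangements) for each chromosome, which are the smallest values these group sizes allow. Both chromosomes had been named with these results known, so the values are descriptive.

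**Figure D4:**
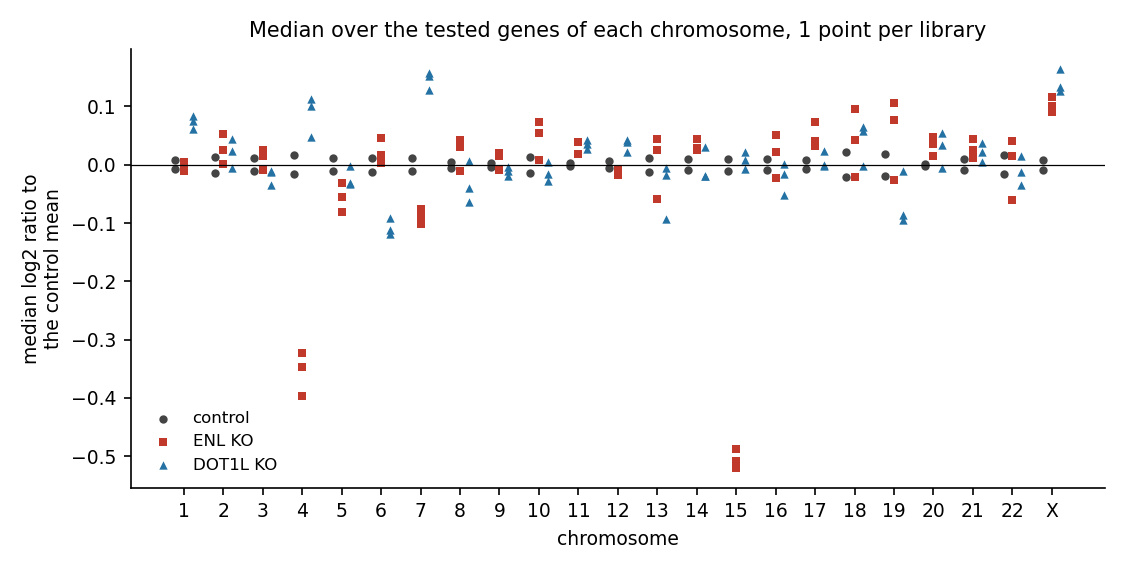
Each point is 1 library: the median log2 ratio to the control mean over the tested genes of each chromosome (horizontal axis). The 3 ENL knockout squares drop to between -0.52 and -0.49 on chromosome 15 and between -0.40 and -0.32 on chromosome 4, while the DOT1L knockout triangles lie between -0.01 and 0.11 there.

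Within the chromosomes, stretches were set after the values had been seen, and no test was made on them. Every 10-megabase bin of chromosome 15 with at least 10 tested genes had a median between -0.58 and -0.38. On chromosome 4 the first 50 megabases had a median of -0.17 over 166 genes, the stretch from 50 to 70 megabases 0.06 over 38 genes, and the rest, from 70 megabases on, -0.49 over 322 genes. In that last stretch 194 genes (60.2%) fell and 14 rose, and the DOT1L knockout median was 0.14. Chromosome 5 showed a step as well: the first 60 megabases had a median of -0.34 over 139 genes, with 71 lower and 10 higher, and the remainder 0.0048 over 478 genes. Further 10-megabase bins had shifts in either direction. On chromosome 17 the bin from 80 to 90 megabases had a median of 0.36, with 45 of 69 genes higher and 6 lower, and on chromosome 19 that from 50 to 60 megabases had 0.32, with 97 of 194 higher and 16 lower. On chromosome 1 the 3 bins from 100 to 130 megabases had medians of -0.25, -0.20 and -0.94, the last over 10 genes. Beyond 80 megabases of chromosome 7 the median was -0.18 over 385 genes in the ENL knockout and 0.31 in the DOT1L knockout, whereas up to 80 megabases the medians were 0.03 and -0.0099. DNA copy number was not analysed here, and its part in these shifts was not tested.

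**Figure D5:**
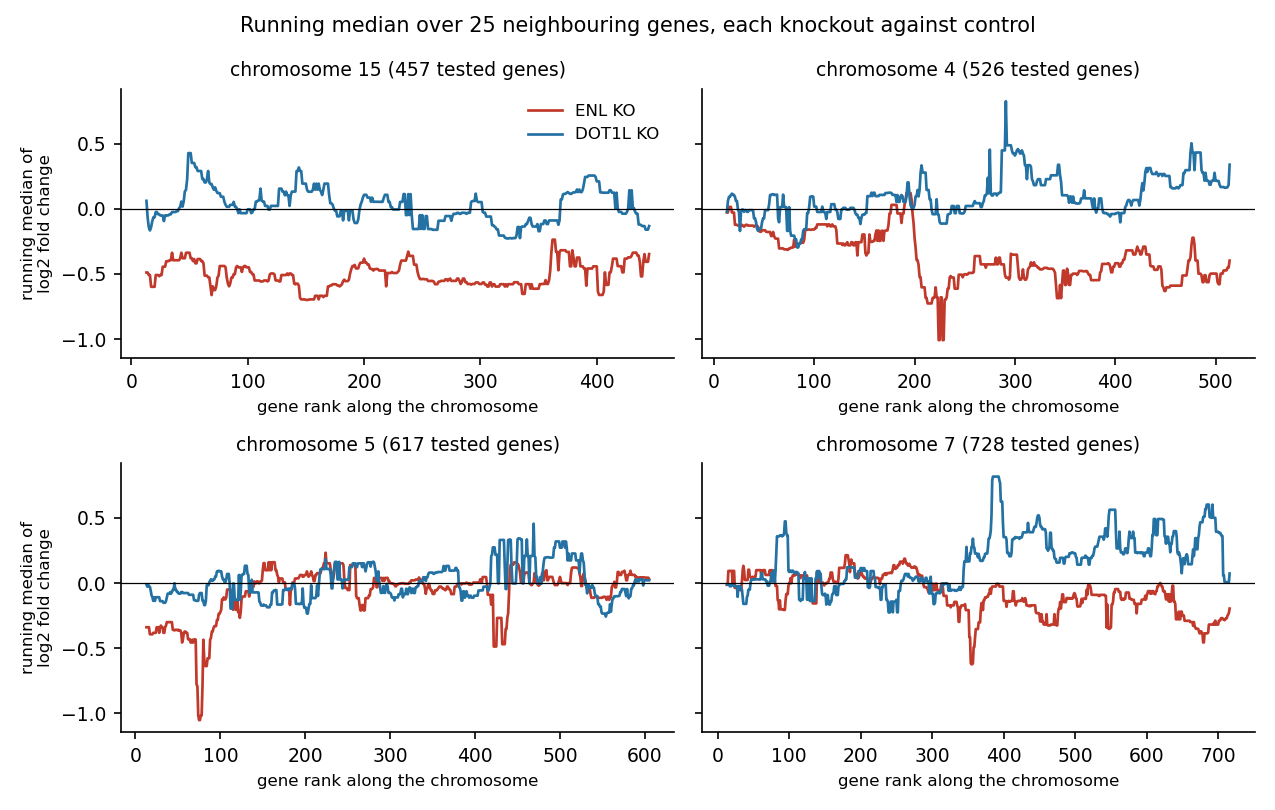
Running median of log2 fold change over 25 neighbouring tested genes, by gene rank along chromosomes 15, 4, 5 and 7, for the ENL knockout (red) and the DOT1L knockout (blue) against the same controls. The ENL knockout line stays below 0 along all of chromosome 15 (from -0.70 to -0.24) and steps down on chromosome 4, and the lines part on the far side of chromosome 7.

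The most abundant genes of these chromosomes, chosen by control level alone, showed how the shift appeared gene by gene. On chromosome 15, RPL4, a large-subunit ribosomal protein, was at 2196 and 2287 CPM in the controls and at 1745, 1747 and 1743 CPM in the ENL knockout (log2 fold change -0.36, SE 0.049, edgeR adjusted p = 5.6e-05). RPLP1, a ribosomal stalk protein, fell by 0.45, PKM, pyruvate kinase, by 0.31, MAP1A, a microtubule-associated protein, by 0.78, and ALDH1A2 by 0.62. Relative to the median of their own chromosome, RPL4, PKM and RPLP1 changed by 0.16, 0.21 and 0.070, that is, to the opposite side of 0. On chromosome 4, RPS3A, a small-subunit ribosomal protein in the shifted far stretch, was at 1086 and 1169 CPM in the controls and at 853.5, 795.7 and 840.8 CPM in the ENL knockout. HNRNPD, an RNA-binding protein, fell by 0.51 with wide replicate scatter (567.8 and 414.0 CPM against 412.5, 322.9 and 301.2 CPM). HNRNPD lost its call with DESeq2 and without control 1, ENL knockout 2 or ENL knockout 3, with adjusted p of 0.065 to 0.32. Relative to their own chromosome, RPS3A (-0.069), HNRNPD (-0.13) and ALDH1A2 (-0.10) no longer passed either. WDR1, an actin-disassembly factor near the other end, rose by 0.30, and PAICS of purine synthesis and RPL9 did not pass. Relative to the median of chromosome 4, WDR1, PAICS and RPL9 changed by 0.67, 0.49 and 0.29. All of them lie before 70 megabases, where the shift was smaller or absent, so a single median per chromosome can overcorrect them.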

How the data were processed

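Messenger RNA of K562 cells was sequenced from strand-marked, poly(A)-selected libraries, per the labels' protocols. The authors deposited 1 table of fragment counts per gene with 9 columns, raw and not scaled, and 1 control column identical to another was left out. The tools named for the series, per the submitters' processing notes, include fastp 0.13.1, HISAT2 2.1.0 and featureCounts 1.6.1, with no role given. The use of strand in counting is not given in the sources used here, so overlapping and antisense genes are uncertain. Of the gene symbols, 93.7% matched RefSeq on GRCh38.p14, and 99.9% of the matched ones overlapped their position there, so positions are printed on GRCh38 as the table lists them.

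Genes were kept by edgeR's filterByExpr (at least 10 counts in a library of median size, at least 15 in total). All 8 distinct K562 libraries entered 1 quasi-likelihood fit (edgeR 4.0.16, R 4.3.3, TMM scaling, no covariates), so that the 2 controls share the spread of the other groups. P-values were adjusted by Benjamini-Hochberg over all tested genes, and a gene was called at an adjusted p of 0.05. Other settings were DESeq2 1.42.0, other scalings, filters and sample sets, a replicate block and changes relative to the gene's own chromosome. The procedure was tested on simulated data of 13907 genes. Of genes changed by 0.5 on the log2 scale 75% to 85.7% were called, and of those changed by 1, 94.4% to 97.4%. Only 26 to 39 genes were changed per step, all with a mean above 1 CPM. The simulated libraries were independent and held no chromosome shifts, so these shares do not give the power of the real comparison. Tables were summarised with Python 3.11.15. Other samples of the series were not analysed here.

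Named genes were MLLT1 and DOT1L, the 12 largest changes in each direction (mean of at least 5 CPM, groups not overlapping), the 8 largest CPM differences in each direction (at least 2-fold), the 5 most abundant genes of chromosomes 4 and 15, and up to 5 members of each list with the smallest adjusted p. Other list members are named to show how a list was spread and were chosen after their values were seen. The comparison, the lists and these rules were chosen with earlier results of these data known. Some genes are not reported here.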

Additional observations from a re-analysis of the deposited data

How the results depend on the processing

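The numbers of called genes kept within 1.5 times of the 5863 under every other scaling, filter and sample set tried, with 5359 by DESeq2 and 7021 with a replicate block, which changed no call among the 51 named values. Leaving out 1 library at a time gave 4094 to 5658 called genes. A test against a 2-fold change itself called 827 genes in place of 1573. All correlations of deviations between libraries of the same replicate number were positive, from 0.053 to 0.22. Those between libraries of different numbers ran from -0.158 to 0.088. Control 2 correlated more with ENL knockout 3 (0.088) than with ENL knockout 2 (0.06). The main fit had no term for the replicate number, and what libraries of the same number may share was not tested. With changes taken relative to the gene's own chromosome, the log2 fold changes of RPL4 (0.16), PKM (0.21) and RPLP1 (0.070) reversed. The chromosome 15 median of -0.52 was -0.54 with upper-quartile scaling and -0.54 to -0.50 when 1 library was left out. Among genes of at least 10 CPM in the controls, a restriction chosen after seeing the data, the medians were -0.49 on chromosome 15 and -0.31 on chromosome 4. Of 44 counts of list members, 35 kept within 1.5 times without control 1 and 44 with library size scaling. Depth limits the low end: 255 tested genes had at most 3 fragments in each of the 5 libraries, and their changes cannot be read.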
